A study of Mus musculus with 27 samples.

Results

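The gasdermin family was described here through 6 named genes, *Gsdmd*, *Gsdme*, *Gsdmc*, *Gsdmc2*, *Gsdmc3* and *Gsdmc4*, chosen by name from the 22524 genes counted in every library. All 6 were present in the count tables under their Ensembl identifiers, 3 of them had at least 1 read in some library, and 2 of them, *Gsdmd* and *Gsdme*, passed the filter on low counts. The remaining gasdermin genes of the mouse, *Gsdma*, *Gsdma2*, *Gsdma3* and *Pjvk*, were read alongside them. The 27 RNA-seq libraries came from jejunal epithelial organoids of wild-type C57BL/6 mice, from m-ICc12 cells and from mouse embryonic fibroblasts (MEF). The organoids are self-renewing cultures grown from intestinal crypts of 3 male littermates, 8 to 12 weeks old, from each of 3 facilities, namely 2 facilities with different specific pathogen-free microbiotas (SPF, called SR and SE) and 1 germ-free facility (GF), and were sampled at passage 5 to 8. The m-ICc12 line is an immortalised mouse small-intestinal epithelial line (3 replicates), and MEF served as the outgroup (3 replicates, no treatment). Each of the 9 organoid cultures and each m-ICc12 replicate gave 1 library labelled untreated and 1 labelled as treated with tumour necrosis factor (TNF, 5 ng/mL for 8 h). Since m-ICc12 is 1 cell line, its replicates do not stand for animals.

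Gasdermins are held inactive by contact between an amino-terminal pore-forming domain and a carboxy-terminal inhibitory domain. A protease cuts the linker between the domains, and the freed amino-terminal part assembles into pores in the plasma membrane, which release cytosolic content and can end in the lytic cell death called pyroptosis. Gsdmd is cut by the inflammasome protease caspase-1 and by caspase-11, which in the mouse is the product of *Casp4*. Gsdme carries a cleavage site of its own in the linker, and the *Gsdmc* genes form a cluster that is known in the mouse gut from the type 2 response to worms.

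The coding bases around the cleavage sites are shown because cleavage there is what activates each of the detected gasdermins. Each stretch was read from the GRCm38 transcript models, runs 5′ to 3′ on the coding strand, and carries in capitals the 4 codons that end at the cleaved aspartate.

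Gsdmd cleavage site: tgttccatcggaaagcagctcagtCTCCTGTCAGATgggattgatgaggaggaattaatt

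Gsdme cleavage site: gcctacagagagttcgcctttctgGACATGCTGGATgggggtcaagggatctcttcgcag

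The *Gsdmd* stretch covers codons 265 to 284, with the site ending at codon 276 of 487, and lies in exons 7 and 8 (chr15:75866143-75866321, plus strand, intron included). The *Gsdme* stretch covers codons 259 to 278, with the site ending at codon 270 of 512, and lies in exon 7 (chr6:50222764-50222823, minus strand). The first coding bases of *Gsdmc2*, *Gsdmc3* and *Gsdmc4* are shown because reads from these genes can be hard to assign, and capitals mark the bases at which the genes differ from each other.

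Gsdmc2 coding start: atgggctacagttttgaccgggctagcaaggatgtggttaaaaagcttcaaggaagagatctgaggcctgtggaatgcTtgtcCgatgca

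Gsdmc3 coding start: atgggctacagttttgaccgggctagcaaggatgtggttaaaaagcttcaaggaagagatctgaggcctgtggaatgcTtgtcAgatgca

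Gsdmc4 coding start: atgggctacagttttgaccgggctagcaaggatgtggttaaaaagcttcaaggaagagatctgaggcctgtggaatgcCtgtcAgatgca

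These stretches lie at chr15:63835854-63835943, chr15:63869208-63869297 and chr15:63902841-63902930, all on the minus strand, and differ at 2 of 90 positions. Over the whole coding sequence of 1440 bases, *Gsdmc2* and *Gsdmc3* differed at 42 positions (97.1% identical), while *Gsdmc4* differed from either at 203 positions (85.9% identical). Because the libraries were single-end reads, every distinct window of 120 bases in their coding transcripts was compared with the transcripts of all other genes. In *Gsdmc2* 21.8% of the windows were shared with another gene, in *Gsdmc3* 23.3%, in *Gsdmc4* 15.4% and in *Gsdmc* 5.37%, whereas no window of *Gsdmd* or *Gsdme* was shared. With windows of 50 bases, as for reads shortened by trimming, the shares were 51.3% in *Gsdmc2*, 46% in *Gsdmc3*, 39% in *Gsdmc4* and 16.1% in *Gsdmc*, so the counts of these genes are uncertain to that extent.

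By annotation, *Gsdmd* (ENSMUSG00000022575) spans chr15:75862327-75867408 on the plus strand, and the nearest protein-coding genes on its sides are *Zc3h3* and *Mroh6*. *Gsdme* (ENSMUSG00000029821) spans chr6:50188888-50263862 on the minus strand and overlaps *Mpp6* on the opposite strand, but the exons of these genes share 0 bases. The *Gsdmc* cluster runs from 63775968 to 63912297 on chromosome 15, in the order *Gsdmc*, *Gsdmc2*, *Gsdmc3* and *Gsdmc4*, and *Fam49b* follows it.

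The treatment labels and the names of the deposited data contradicted each other. In 12 of 12 organoid and m-ICc12 pairs, the data whose name code ends in T belonged to the library labelled untreated. *Nfkbia*, *Nfkb2*, *Tnfaip3* and *Relb*, targets of the NF-κB pathway that TNF is known to activate, were all higher in the libraries labelled untreated, in 9 of 9 organoid cultures and in 3 of 3 m-ICc12 replicates. *Nfkbia*, the inhibitor that NF-κB itself induces, averaged 197 ± 27.6 CPM (counts scaled to a common library total with TMM factors) in organoids labelled untreated, against 31.1 ± 3.63 CPM in organoids labelled TNF-treated (SD, n = 9 each). Groups were nevertheless kept as labelled, and every treatment difference below is the library labelled untreated minus the library labelled TNF-treated, which is also the T-named data minus the other. Library totals ranged from 6071103 to 43843615 counts, so that 3 counts, the limit taken for detection, corresponded to between 0.0684 and 0.494 CPM. The organoids carried the epithelial markers *Epcam* (980 ± 84.2 CPM) and *Cdh1* (1017 ± 66.3 CPM, SD, n = 9, labelled untreated). The m-ICc12 libraries labelled untreated had 677 ± 35.3 CPM of the keratin *Krt20*, but 4.33 ± 2.35 CPM of *Epcam*, 1.49 ± 0.484 CPM of *Cdh1* and 0.251 ± 0.143 CPM of the intestinal factor *Cdx2* (SD, n = 3), with 32.8 CPM of the brush border gene *Vil1* against 1.26 CPM in MEF. Their mean for the mesenchymal filament gene *Vim* was 2491 CPM against 2460 CPM in MEF, whereas the fibroblast collagen genes *Col1a1* and *Col1a2* had 0.812 and 0.67 CPM against 2070 and 1629 CPM.

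*Gsdmd* was the gasdermin with the widest range. In the organoid libraries labelled untreated it ranged from 12.2 to 44.1 CPM with a median of 29 CPM (mean 27 ± 10.7, SD, n = 9). In those labelled TNF-treated it ranged from 6.74 to 13.1 CPM with a median of 7.47 CPM (8.25 ± 1.97, SD, n = 9). These ranges overlapped through a single value on each side, since the lowest library labelled untreated, GF culture Z919, fell just under the highest library labelled TNF-treated, GF culture Z917. The MEF libraries had 5.16, 5.9 and 10.2 CPM, of which the first pair lay under all organoid libraries and the last lay within the range of those labelled TNF-treated. In m-ICc12 the libraries labelled untreated had 1, 5 and 0 reads of *Gsdmd* and those labelled TNF-treated had 1, 1 and 0 reads, and 5 of these 6 libraries lay at or under 3 counts.

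*Gsdme* was detected in all 27 libraries. The organoid libraries labelled untreated ranged from 5.74 to 17.4 CPM with a median of 8.42 CPM (10.1 ± 4.3, SD, n = 9), and those labelled TNF-treated from 3.72 to 24.3 CPM with a median of 9.69 CPM (10.6 ± 6.06, SD, n = 9). The m-ICc12 libraries had 11.3, 4.86 and 9.84 CPM under the label untreated and 15.2, 11.1 and 6.01 CPM under the label TNF-treated. The MEF libraries had 6.41, 8.31 and 8.32 CPM. All 5 groups overlapped, and each m-ICc12 and MEF value lay within the range of the organoids.

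**Figure D1:**
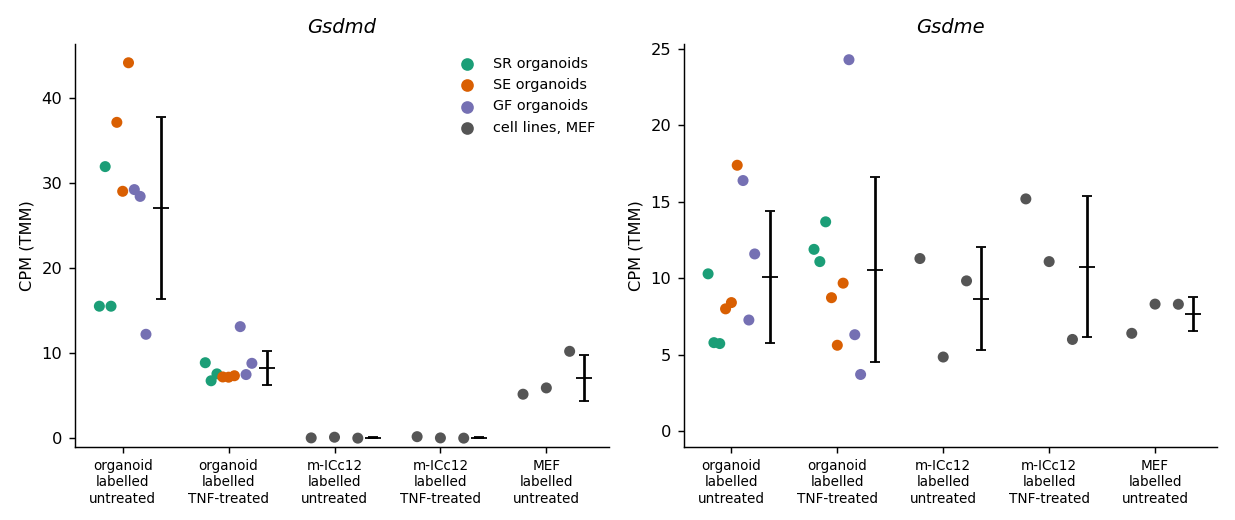
*Gsdmd* (left) and *Gsdme* (right) in CPM with TMM scaling, 1 point per library, for organoids (9 libraries per label, coloured by facility), m-ICc12 (3 per label) and MEF (3), with the mean and SD to the right of each group. *Gsdmd* lay between 12.2 and 44.1 CPM in the organoid libraries labelled untreated and near 0 in all m-ICc12 libraries, while the *Gsdme* ranges overlapped in all groups.

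Per kilobase of the longest coding transcript (1792 bases for *Gsdmd*, 2502 for *Gsdme*), the level of *Gsdmd* was 15 ± 5.96 CPM and that of *Gsdme* 4.04 ± 1.72 CPM in the organoid libraries labelled untreated. Under the label TNF-treated the levels per kilobase lay close together, at 4.6 ± 1.1 CPM for *Gsdmd* and 4.23 ± 2.42 CPM for *Gsdme*. In MEF they were 3.95 ± 1.51 and 3.07 ± 0.44 CPM, and in m-ICc12 labelled untreated 0.0256 ± 0.0314 and 3.47 ± 1.35 CPM (SD). The distance between the genes depended on the length used. Divided by all annotated exon bases, of which *Gsdme* has 12742 and *Gsdmd* 2377, the organoid libraries labelled untreated had 11.3 CPM per kilobase of *Gsdmd* and 0.793 of *Gsdme*.

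The *Gsdmc* genes were not detected in the organoids. *Gsdmc*, *Gsdmc2* and *Gsdmc3* had 0 counts in all 27 libraries, which together hold 778720741 counts and so allow a mean level of up to 0.00385 CPM each. *Gsdmc4* had 0 counts in all 18 organoid libraries, where the same limit is 0.00607 CPM. Its 19 reads came from m-ICc12 replicate 3, with 1 read in the library labelled untreated and 13 in the library labelled TNF-treated, and from MEF replicate 1 with 5 reads. These limits cover counting error only. The receptor chains and factors of the type 2 response were measured in the same organoid libraries. *Stat6*, the transcription factor downstream of interleukin-4 and interleukin-13, had a mean of 139 CPM under the label untreated, and the receptor genes *Il13ra1* and *Il4ra* had 42 and 35.9 CPM. Of the listed genes of tuft cells, the sources of interleukin-25 in the gut, *Trpm5* had 4.26 CPM, *Pou2f3* 3.07 CPM and *Dclk1* 1.18 CPM. *Dclk1* was higher in MEF, at 44.6 CPM. *Il25* itself and *Retnlb*, also listed as type 2 response genes, did not pass the filter on low counts in organoids.

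Among the other gasdermins, *Gsdma3* had 0 counts in all 27 libraries and *Pjvk* had 18 counts in 1 m-ICc12 library and 0 elsewhere. *Gsdma2* was detected in organoids alone, very unevenly. It ranged from 0 to 164 counts in the libraries labelled untreated and from 0 to 41 counts in those labelled TNF-treated, with 0 counts in every m-ICc12 and MEF library, and its organoid means were 2 CPM under the label untreated and 0.295 CPM under the label TNF-treated. *Gsdma* was scattered, with 0 counts in 12 of 27 libraries and no more than 1.07 CPM in any. Its counts in m-ICc12 were 4, 41 and 13 under the label untreated and 0, 13 and 0 under the label TNF-treated, and MEF had 0.

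The comparison of both libraries of each culture asks how the family differed between the treatment labels, which the data names contradict. The paper reports that TNF could raise *Gsdmd* and caspase-11 transcripts in organoids. In organoids *Gsdmd* was higher in the library labelled untreated in 9 of 9 cultures, by a median ratio of 3.8. The ratio was 5.15, 4.04 and 6.01 in SE cultures Z911, Z912 and Z913. It was 1.75, 4.73 and 2.05 in SR cultures Z908, Z909 and Z910, and 2.22, 3.8 and 1.39 in GF cultures Z917, Z918 and Z919. Much of this variation lay in the libraries labelled untreated, since 8 of 9 libraries labelled TNF-treated fell between 6.74 and 8.86 CPM. Over all cultures the log2 difference was 1.71 (SE 0.22, adjusted p = 1.3e-05, edgeR quasi-likelihood test with Benjamini-Hochberg adjustment), a 3.27-fold difference. *Gsdme* was higher in the library labelled untreated in 4 of 9 cultures, with ratios from 0.42 to 3.12 and a log2 difference of -0.06 (SE 0.30, adjusted p = 0.98). Of the 2 members tested 1 was thus called higher and 0 lower, where 1.26% of the 12104 genes tested were called higher and 0.124% lower. *Gsdma2* had a log2 difference of 2.72 (SE 1.06, adjusted p = 0.39) and was not called.

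**Figure D2:**
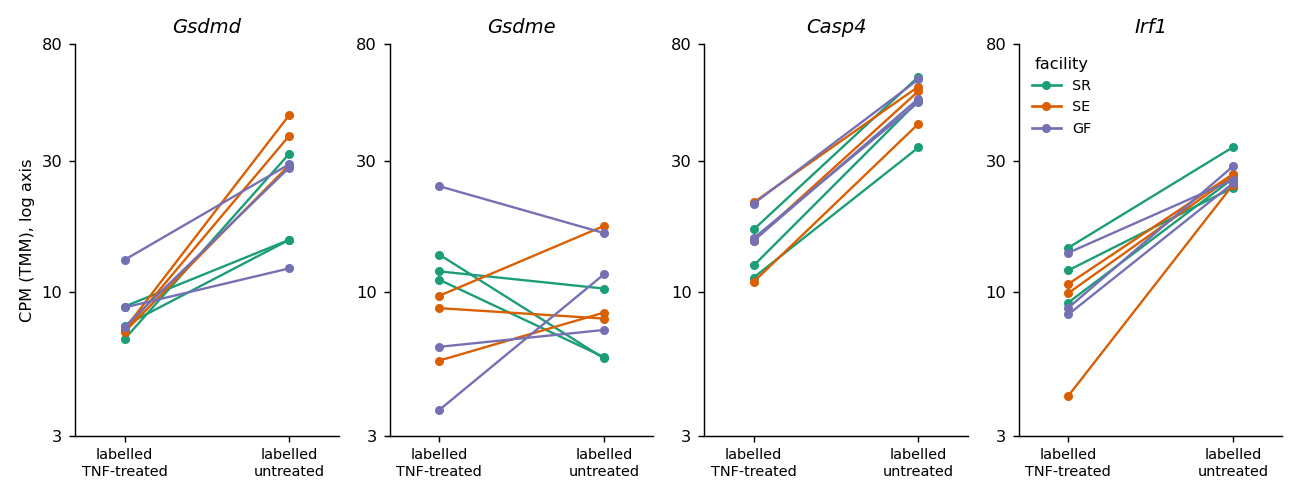
Levels of *Gsdmd*, *Gsdme*, *Casp4* and *Irf1* in the paired libraries of the 9 organoid cultures (CPM with TMM scaling, log axis), with 1 line per culture, coloured by facility. *Gsdmd*, *Casp4* and *Irf1* were higher in the library labelled untreated in 9 of 9 cultures, *Gsdme* in 4 of 9.

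Of the proteases that cut gasdermins, 6 of 10 listed genes were tested in organoids, and 1 was called higher and 0 lower, with a median log2 difference of 0.09 over the 6 against 0.00 over all genes. The gene called was *Casp4*, which encodes the caspase that cuts Gsdmd upon sensing cytosolic lipopolysaccharide. Its mean was 50.5 CPM under the label untreated and 15.6 CPM under the label TNF-treated, a log2 difference of 1.70 (SE 0.15, adjusted p = 1.7e-08), and its ratio varied less than that of *Gsdmd*, from 2.64 to 3.99 over the cultures. *Casp1*, which encodes the inflammasome protease caspase-1, had means of 100 and 90.7 CPM (log2 difference 0.14, SE 0.08, adjusted p = 0.67). The granule proteases *Elane*, *Ctsg*, *Gzma* and *Gzmb* had 0 counts in all organoid libraries.

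Of the inflammasome sensors and the adaptor, 11 of 14 genes were tested and 0 were called by edgeR. *Naip6* and *Nlrp6* had the highest levels. *Naip6*, of the family that senses bacterial flagellin and secretion-system proteins, had means of 274 CPM under the label untreated and 354 CPM under the label TNF-treated (log2 difference -0.37, SE 0.11, adjusted p = 0.097). With culture as a block the difference of *Naip6* was -0.36 and called (adjusted p = 5.5e-05), as it was by DESeq2 (adjusted p = 0.028) and without SR culture Z908 (adjusted p = 0.0051). In edgeR it was not called without GF culture Z917 (log2 difference -0.34, adjusted p = 0.24) or without the filter on low counts (adjusted p = 0.084). *Nlrp6* had 283 and 304 CPM (log2 difference -0.10, SE 0.07, adjusted p = 0.78). The list of gasdermin regulators and partners holds, among others, genes of transcription, palmitoylation, pore repair and membrane rupture. Of its genes, 13 of 13 were tested and 1 was called. This was *Irf1*, an interferon regulatory factor, at 26.8 against 10.2 CPM (log2 difference 1.39, SE 0.18, adjusted p = 1.1e-05). *Irf2*, known as an activator of *Gsdmd* transcription, had 62 and 64 CPM (log2 difference -0.05, SE 0.11).

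Of the list of interleukins and alarmins linked to pyroptosis (cargo in the plots), which also holds the secreted interleukin-18 binding protein gene *Il18bp*, 3 of 6 genes were tested and 0 were called. *Hmgb1*, a nuclear alarmin, had means of 394 and 399 CPM, *Il18* had 4.08 and 5.47 CPM, and *Il1b* had 0 counts in all 27 libraries. Of the type 2 response genes, 4 of 6 were tested and 0 were called by edgeR without the block. *Il4ra* had a log2 difference of 0.54 (SE 0.15, adjusted p = 0.067), and it was called higher in the libraries labelled untreated by DESeq2 (adjusted p = 0.023) and with culture as a block (log2 difference 0.58, adjusted p = 0.01). Of the nearest neighbours, *Zc3h3* (log2 difference 0.18, SE 0.22) and *Mroh6* (0.16, SE 0.93) next to *Gsdmd*, and *Mpp6* (-0.11, SE 0.12) and *Osbpl3* (-0.29, SE 0.17) next to *Gsdme*, were not called.

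**Figure D3:**
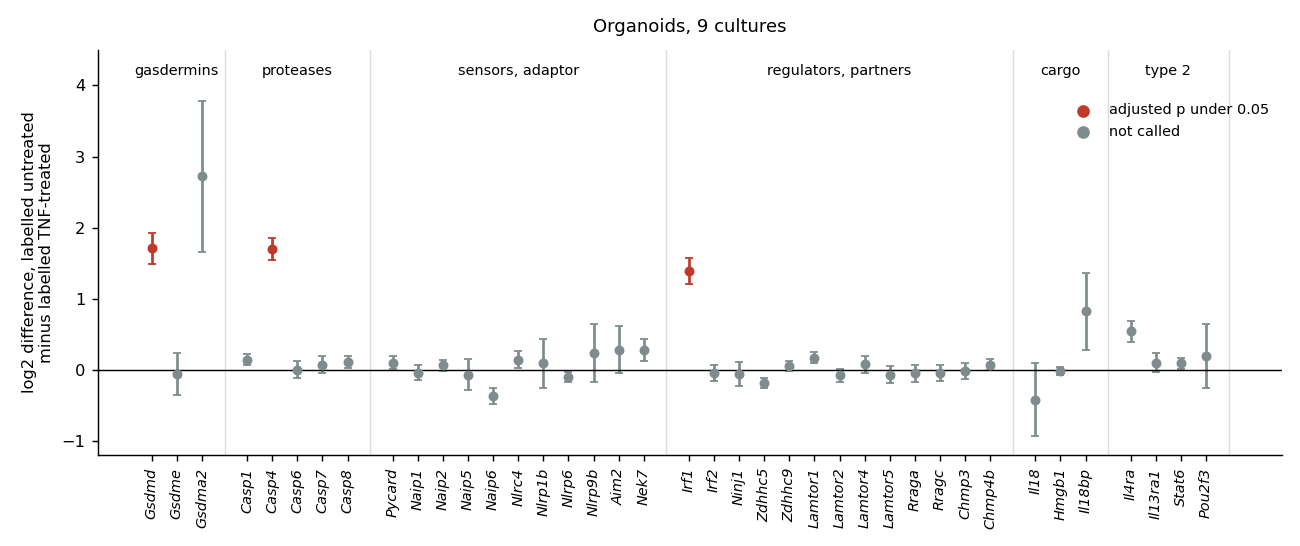
Log2 difference (labelled untreated minus labelled TNF-treated, edgeR) in the 9 organoid cultures for gasdermins, 5 of the proteases, sensors and adaptor, regulators, cargo and type 2 response genes that passed the filter, with bars for the SE. *Gsdmd*, *Casp4* and *Irf1*, in red, had an adjusted p under 0.05.

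Cell type markers moved with the same labels in part. Of 5 stem and cycling cell genes, *Olfm4* (890 against 252 CPM, log2 difference 1.82, SE 0.29) and *Ascl2* (28.5 against 8.81 CPM, 1.70, SE 0.23) were called higher in the libraries labelled untreated, while *Lgr5* had 153 and 160 CPM. The summed level of these 5 genes ranged from 1761 to 3485 CPM under the label untreated and from 1290 to 2198 CPM under the label TNF-treated. No gene of the enterocyte, Paneth, goblet, tuft, enteroendocrine, fibroblast or leukocyte lists was called without the block. With culture as a block, *Apoa1* was called higher (log2 difference 0.49), *Cdx1* higher (0.19), *Sis* lower (-0.20) and *Fcgbp* lower (-0.15). In bulk libraries more cells of a type and more RNA per cell cannot be told apart, and the part of cell composition in the *Gsdmd* difference was not tested.

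In m-ICc12 the same comparison had 1 member above the filter, *Gsdme*, with a log2 difference of -0.31 (SE 0.44, adjusted p = 1) and a higher value under the label untreated in 1 of 3 replicates. Of the 11861 genes tested 0.11% were called in either direction. *Casp4* was higher under the label untreated in 3 of 3 replicates, by ratios of 1.2, 6.47 and 7.48, but was not called (log2 difference 1.95, SE 0.59, adjusted p = 0.61). Without replicate 1, which contains the library of 6071103 counts, its difference was 2.78 (adjusted p = 0.024). None of the other proteases, sensors, regulators, cargo or type 2 genes tested in m-ICc12 was called, against 4 of 4 TNF check genes. The interaction term, which tests whether the difference between labels was unequal in organoids and m-ICc12, was called for 0.159% of genes and for neither member. Its value was 1.20 for *Gsdmd* (SE 1.41, adjusted p = 1), with the counts in m-ICc12 too few to set a difference there, and 0.24 for *Gsdme* (SE 0.63, adjusted p = 1).

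Organoids, m-ICc12 and MEF were then compared through the libraries labelled untreated. *Gsdmd* was higher in organoids than in m-ICc12, with 6600 reads in 9 organoid libraries and 6 reads in 3 m-ICc12 libraries, a ratio per total count of 524 (exact 95% counting interval 240 to 1427). The fitted log2 difference was 9.01 (SE 0.74, adjusted p = 1.8e-08). It was 10.60 without m-ICc12 replicate 2, which held 5 of the 6 reads, and was 8.46 without replicate 3. *Gsdme* did not differ beyond its spread, at 0.22 (SE 0.43, adjusted p = 0.67). Of the 2 members tested 1 was called higher and 0 lower, where 31.6% of 12962 genes were called higher and 29.3% lower, so that a call of this kind was common. *Gsdmd* passed the filter on low counts through the organoid libraries alone, so the direction of its call was set by the filter. With the libraries labelled TNF-treated, 2044 reads stood against 2 (ratio 254, interval 70.2 to 2099), *Gsdmd* was again called (log2 difference 7.74) and 35% of genes were called higher.

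Against MEF, *Gsdmd* was higher in the organoid libraries labelled untreated by a log2 difference of 1.94 (SE 0.40, adjusted p = 5.1e-04), and *Gsdme* was not called (0.40, SE 0.40, adjusted p = 0.39). Of all genes 34.6% were called higher and 32.6% lower in organoids. This *Gsdmd* call rested on the treatment label, because with the organoid libraries labelled TNF-treated the log2 difference was 0.22 (SE 0.31, adjusted p = 0.55), while 36.2% of genes were called higher. If the labels were exchanged, the latter value would be the comparison of unstimulated cells. The m-ICc12 line lay below MEF for *Gsdmd* (log2 difference -7.16, SE 0.90, adjusted p = 1.9e-05), with 721 MEF reads against 6 and a ratio of 131 (interval 59.9 to 358). Without m-ICc12 replicate 2 this difference was -8.78, and without replicate 3 it was -6.61. Here 28.1% of genes were called higher in m-ICc12 and 31.2% lower, and *Gsdme* was not called (0.13, SE 0.38, adjusted p = 0.78). In this comparison *Gsdmd* passed the filter through the MEF libraries alone, so the direction of its call was set by the filter.

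By mean level, the order for *Gsdmd* was organoids labelled untreated, then organoids labelled TNF-treated and MEF, then m-ICc12. Organoids labelled TNF-treated and MEF did not differ beyond their spread. The place of m-ICc12 rests on its read counts, since the filter set the direction of its calls. For *Gsdme* no pair of neighbours in the order differed beyond the spread between libraries.

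Genes that act with Gsdmd also differed between the cells. Of the 11 sensors and adaptor genes tested, 10 were higher in organoids than in m-ICc12 and 1, *Nek7*, was lower. *Pycard*, the adaptor that recruits caspase-1, had means of 252 CPM in organoids, 0.501 CPM in m-ICc12 and 0.304 CPM in MEF. *Nlrc4*, the partner of the Naip sensors, had 53.3, 0.287 and 0.0657 CPM, and *Naip6* had 274, 0.625 and 0.33 CPM, though reads of the closely related *Naip* genes may have been split between them. *Nek7*, a kinase that binds Nlrp3, had 28.1 CPM in organoids and 219 CPM in m-ICc12, and *Nlrp3* itself had 0 counts in organoids and m-ICc12 labelled untreated. Against MEF 10 of 12 sensors and adaptor genes were higher in organoids, and *Nek7* and *Nlrp3* were lower. The median log2 difference of this list was 7.46 against m-ICc12 and 8.66 against MEF, beside 0.03 over all genes in each comparison. Of all genes, 31.6% were called higher in organoids against m-ICc12 and 34.6% against MEF. *Aim2*, *Nlrp9b*, *Nlrp1b* and *Nlrc4*, at 0.0176 to 0.287 CPM in m-ICc12, passed the filter on low counts there through the organoids alone. Against MEF, *Nlrp1b*, *Nlrp9b*, *Nlrc4* and *Naip1*, at 0 to 0.117 CPM in MEF, passed through the organoids alone, and *Nlrp3* through MEF alone. The filter set the direction of all these calls. Genes low in both groups were not tested, so these counts and medians follow in part from the filter.

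Of the 6 proteases tested, 4 were higher in organoids than in m-ICc12 and 0 were lower, beside 31.6% and 29.3% of all genes. *Casp1* had means of 100 CPM in organoids, 5.76 CPM in m-ICc12 and 0.124 CPM in MEF, and *Casp4* had 50.5, 9.13 and 0.636 CPM. Under the label TNF-treated *Casp4* had 15.6 CPM in organoids and 2.46 CPM in m-ICc12. If the labels were exchanged, these would be its levels in unstimulated cells. *Casp8*, which acts in death receptor signalling, had 99.7 CPM in m-ICc12 against 99.9 CPM in organoids and was not called there. Against MEF 5 of the 6 proteases were higher in organoids and 1 was lower, beside 34.6% and 32.6% of all genes. *Casp1*, at 0.124 CPM in MEF, passed the filter on low counts in this comparison through the organoids alone. Of the interleukins and alarmins, *Il18* was higher and *Il33* lower in organoids than in m-ICc12, at 4.08 against 0.00794 CPM and 0.461 against 6.55 CPM. Each passed the filter on low counts only through the cells where it was higher, so the filter set the direction of these calls. Of the 13 regulators and partners, 6 were higher in organoids than in m-ICc12 and 2 were lower, where calls in both directions were common among all genes (31.6% and 29.3%). *Irf2* was among the higher genes (62 against 23.4 CPM) and *Irf1* was lower (26.8 against 49.8 CPM), as was *Ninj1*, which carries out membrane rupture after pore formation (22.2 against 55.1 CPM).

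**Figure D4:**
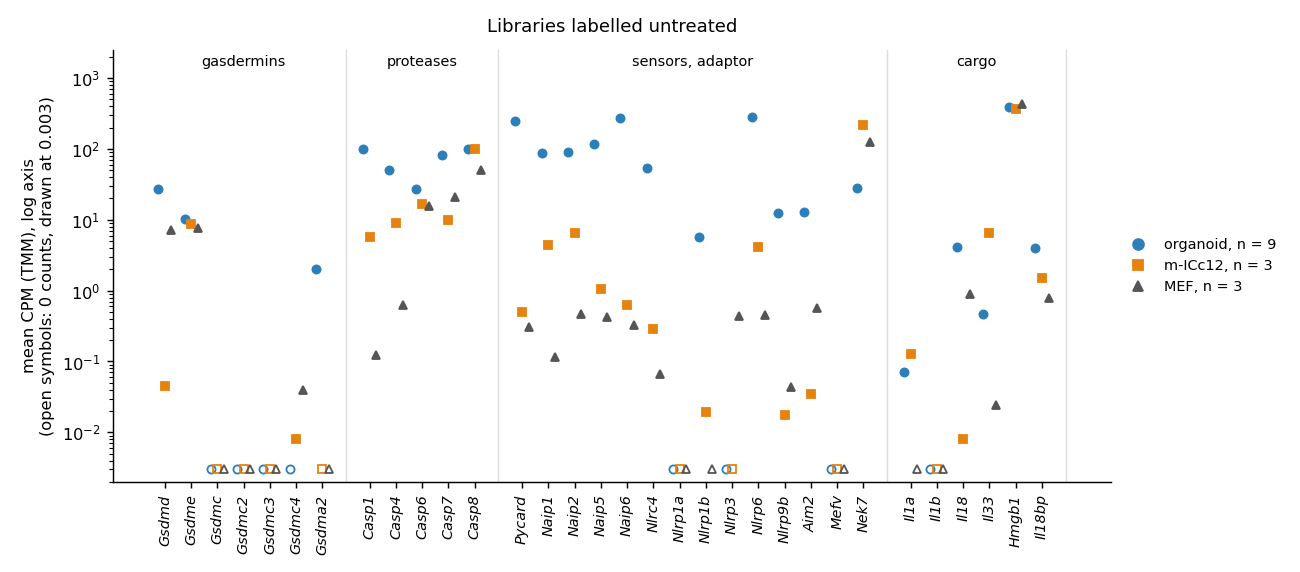
Mean level (CPM with TMM scaling, log axis) of gasdermins and of 5 proteases, sensors, adaptor and cargo in the libraries labelled untreated of organoids (n = 9), m-ICc12 (n = 3) and MEF (n = 3), with open symbols for genes with 0 counts in the group. *Gsdmd*, *Casp1*, *Pycard* and the *Naip* genes were lower in m-ICc12 than in organoids, whereas *Gsdme* lay between 7.68 and 10.1 CPM in all.

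The facility of origin was compared within the organoid libraries labelled untreated. *Gsdmd* had 20.9 ± 9.5 CPM in SR, 36.7 ± 7.57 CPM in SE and 23.2 ± 9.59 CPM in GF cultures (SD, n = 3 each). *Gsdme* had 7.27 ± 2.59, 11.3 ± 5.29 and 11.8 ± 4.57 CPM. The difference of GF from SPF organoids was -0.31 on the log2 scale for *Gsdmd* (SE 0.35, adjusted p = 1) and 0.35 for *Gsdme* (SE 0.42, adjusted p = 1), and 0.0325% of genes were called. Between SR and SE the difference was -0.81 for *Gsdmd* (SE 0.32, adjusted p = 1) and -0.64 for *Gsdme* (SE 0.50, adjusted p = 1). Here edgeR called 0 genes (0%), with 486 genes at an unadjusted p under 0.05 and 8 genes called by DESeq2. The SR and SE values of *Gsdmd* overlapped, since SR culture Z909 had 31.9 CPM and SE culture Z912 had 29 CPM. Under the label TNF-treated the facility means of *Gsdmd* were 7.71, 7.23 and 9.8 CPM. The interaction of treatment label with GF against SPF was called for 0% of genes by edgeR (323 at an unadjusted p under 0.05, and 1 by DESeq2), and was -0.70 for *Gsdmd* (SE 0.46, adjusted p = 1) and 0.17 for *Gsdme* (SE 0.66, adjusted p = 1).

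The genes whose log2 CPM followed *Gsdmd* most closely were listed as a description, among 13792 other genes above the filter. Over all 27 libraries these were *H2-D1* (Pearson r = 0.973), *Ifih1* (0.968), *Bmp2* (0.967), *Ctsz* (0.963) and *Nipal1* (0.961), values that the contrast between organoids and the other cells goes into. Over the 18 organoid libraries, after the mean of each label was subtracted, they were *Nyap1* (r = 0.889), *Ifit3* (0.882), *Clcf1* (0.823), *Mxd1* (0.82) and *Tarbp2* (0.816), while *Casp4* had r = 0.365. For *Gsdme* the highest values were lower, from 0.593 for *Sh3bgrl3* to 0.49 for *Clk2* over all libraries and from 0.745 for *Duox2* to 0.712 for *Lamtor5* within organoids, and its r with *Gsdmd* was 0.0593 over all libraries and 0.262 within organoids. Libraries of 1 culture share a mouse, and all points share the scaling of the library totals.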

How the data were processed

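The authors sequenced poly-A RNA with a kit that the labels, but not the methods, call stranded (the strand setting of the counting is not given in the sources used here) and, per the labels, processed the reads with bcl2fastq 2.19, Trimmomatic, STAR 2.5.4b and featureCounts on GRCm38; the deposited values are raw counts per Ensembl gene, 1 table per library, without pooling. Symbols came from GENCODE vM21 (22214 of 22524 identifiers matched). From the counts, CPM with TMM factors, and quasi-likelihood F-tests were computed with edgeR 4.0.16 (R 4.3.3) on the compared libraries alone, for genes reaching 10 counts in 50% or more of any 1 group, with calls at a Benjamini-Hochberg adjusted p under 0.05 over all genes tested. SE was derived from the log2 difference and F. DESeq2 1.42.0 was an alternative. The scripts were tested on simulated data. Log2 CPM for correlations used a prior count of 2. Intervals are exact (scipy 1.17.1) and cover counting error only.

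Groups follow the sample labels. Both libraries of an organoid culture come from 1 mouse and are paired by design, and their deviations from the label means correlated with a mean r of 0.15 (0.0754 to 0.255), against -0.0179 between cultures. Nothing states that m-ICc12 or MEF replicates are independent cultures, so p-values there measure the spread between these samples. Members and lists were chosen with earlier results of these data known. Named were all members, the called or otherwise most abundant genes of each list, the nearest coding genes within 100000 bases, and the 5 genes most correlated with each detected member; other list genes were named after their values were seen. A gene of the protease list is not reported here by name.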

Additional observations from a re-analysis of the deposited data

Results flagged for a closer look

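A single library stood apart for both detected members, the library labelled TNF-treated of GF organoid culture Z917, which holds 20786008 counts. Among the 9 organoid libraries of that label it had the highest *Gsdmd* value, 13.1 CPM against 8.86 CPM for the next, a gap of 0.67 of the whole range where 0.493 is the critical value of Dixon's test for 9 samples. It also had the highest *Gsdme* value, 24.3 CPM against 13.7 CPM, a gap of 0.516 of the range. In all 8 sets of 9 values were tested, and chance flags about 1 in 20. Without culture Z917 the *Gsdmd* difference between the labels was 1.81 on the log2 scale and was called, and that of *Gsdme* was 0.08 and was not called. The cause was not tested.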

How the results depend on the processing

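The number of members called was the same in 120 of 121 recomputations (DESeq2, upper-quartile scaling, no filter on low counts, summed *Gsdmc* counts, replicate block, a facility term, a fit of all 27 libraries, the libraries labelled TNF-treated in place of those labelled untreated, or each culture left out). The exception was organoids against MEF, where it was 0 with the libraries labelled TNF-treated. *Gsdmd* in organoids stayed called in 16 of 16 alternatives, from 1.57 to 1.82 on the log2 scale, and with the replicate block, which pairs the libraries of a culture, it was 1.62 and changed no call of a member. The replicate block called 1 further sensor and 1 further type 2 gene, given above. *Gsdme*, never called, changed sign with the block in organoids (0.01) and, with the libraries labelled TNF-treated, against m-ICc12 (-0.03) and between SR and SE (0.61). *Gsdmd* did so between GF and SPF (0.39) and between SR and SE (0.09). Leaving out 1 culture gave *Gsdme* -0.21 to 0.08 between labels in organoids, -0.71 to 0.00 in m-ICc12, -0.05 to 0.47 for organoids against m-ICc12, -0.10 to 0.42 for m-ICc12 against MEF, -0.08 to 0.63 for the interaction with cell type, -0.24 to 1.03 for that with GF, 0.02 to 0.63 for GF against SPF and -0.97 to -0.18 for SR against SE. It gave *Gsdmd* 0.19 to 3.04 and -1.03 to -0.46 for these interactions, -0.51 to -0.01 for GF against SPF and -1.26 to -0.63 for SR against SE. Of the 5 genes most correlated with *Gsdmd* or *Gsdme*, 2 remained with Spearman's rho. Dividing by all exons, chosen after seeing the data, put *Gsdmd* over *Gsdme* per kilobase by 14.3, 4.18 and 4.94 in organoids under each label and MEF. The cause of these changes was not tested. The m-ICc12 replicates share only a number, with same-number correlations from -0.00366 to 0.0992. Few reads limit the *Gsdmd* differences in m-ICc12, where the libraries labelled untreated hold 32567372 to 43843615 counts.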
